A study of Mus musculus with 12 samples.

Results

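The genes described here make up the replication checkpoint and the recombination repair machinery: the ATR and ATM checkpoints, the Fanconi pathway and homologous recombination. They were taken as 38 symbols on a list, and a probe belonged to a gene where the platform annotation gave it that symbol. Of these, 37 had at least 1 probe (93 probes in all), and 33 passed the filter on dim probes and were tested among 9388 genes. Xrcc2 was not analysed here. The RNA came from erythroblasts, the nucleated precursors of red cells, sorted from mouse marrow by flow cytometry for the erythroid surface protein Ter119 and a high level of CD71, the transferrin receptor. One group came from mice with a knock-in of cyclin E carrying the substitutions T74A and T393A, and the other from wild type littermates, both on strain background 129. The labels give neither the age of the mice, nor whether the knock-in allele was carried in 1 or both copies, nor how many animals stood behind a sample. Each genotype had 6 Illumina bead arrays.

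Cyclin E activates Cdk2 at the entry into DNA synthesis, and the ubiquitin ligase subunit Fbw7 recognises it when it is phosphorylated and sends it to the proteasome. When a replication fork stalls, single-stranded DNA recruits the kinase ATR, which through the adaptor claspin activates the kinase Chk1 and holds back origin firing and mitosis. Double-strand breaks are sensed by the MRN complex and the kinase ATM and can be repaired from the sister chromatid by homologous recombination, while the Fanconi proteins clear crosslinks and protect forks. Many of these genes are transcribed mainly in S and G2 phase, and erythroblasts divide several times before they leave the cell cycle.

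Adjacent arrays behaved as duplicates. Their log2 values, centred on each gene, gave correlations of 0.852 to 0.941. Non-adjacent arrays within a genotype gave -0.40 to 0.19, so each pair was averaged and counted as 1 sample, giving 3 samples per genotype. Arrays of different genotype gave -0.78 to 0.31. The highest of these, 0.30 to 0.31, joined knock-in arrays 5 and 6 to wild type arrays 7 and 8, above any non-adjacent arrays within a genotype. Nothing in the labels says that these samples are separate animals, and p-values measure only the spread between them, which may be technical. Below, values are log2 intensities in the order of arrays 1 and 2, 7 and 8, and 9 and 10 for wild type, and 3 and 4, 5 and 6, and 11 and 12 for knock-in. The wild type sample of arrays 9 and 10 had the lowest mean intensities (134.5 and 144.4, against 169.7 to 247.2 on the other arrays). It also had the fewest probes above background (16014 and 15988). Knock-in arrays 11 and 12 came close in that count, with 16585 and 16136, against 17389 to 18227 on arrays 1 to 8. The probe of Ccne1, the gene that carries the knock-in, differed by -0.21 ± 0.25 (SE), which does not check the genotype, since the alleles differ by substitutions. Of 12 erythroid markers 9 were tested, and their mean level spanned 11.59 to 12.26 in wild type and 12.03 to 12.22 in knock-in samples; the sort gene Tfrc was lowest, at 10.95, in the wild type sample of arrays 9 and 10. Markers of neutrophils were also present in every sample, with 12 of 13 tested and a mean of 12.64 to 13.41. In bulk samples, fewer cells of a type and less RNA per cell cannot be told apart.

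Transcripts of the checkpoint and repair genes differed little between the genotypes, and none was called. With limma, 0 of the 33 genes reached an adjusted p under 0.05, where 0.0852% of all 9388 genes did. At an unadjusted limma p under 0.05, 3 were higher in the knock-in, Brca1, Bard1 and Usp1, and 0 were lower, against 5.56% and 3.09% of all genes in those directions. These shares lie near the background, and the genes behind them changed with the setting: under 75th percentile scaling Usp1 was the single one, and Brca1 was the single higher one without wild type arrays 7 and 8, wild type arrays 9 and 10, knock-in arrays 3 and 4, or knock-in arrays 11 and 12. The difference was above 0 for 17 genes and below 0 for 16, while 41.6% of all genes lay above 0, and the median difference was 0.01 against -0.03 over all genes. Under 75th percentile scaling 13 of the 33 lay above 0, with a median of -0.12 against -0.13 over all genes. The largest difference was 0.54 for Usp1, a 1.45-fold level (95% interval 1.03 to 2.05), and the lowest was -0.22 for Rad54l. For 31 of the 33 genes the 95% interval of the difference lay within 2-fold in either direction, and for 20 within 1.5-fold, much as for all genes (8533 and 6082 of 9388). The offset used in background correction pulls dim genes toward 0, so these bounds hold on that scale.

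**Figure D1:**
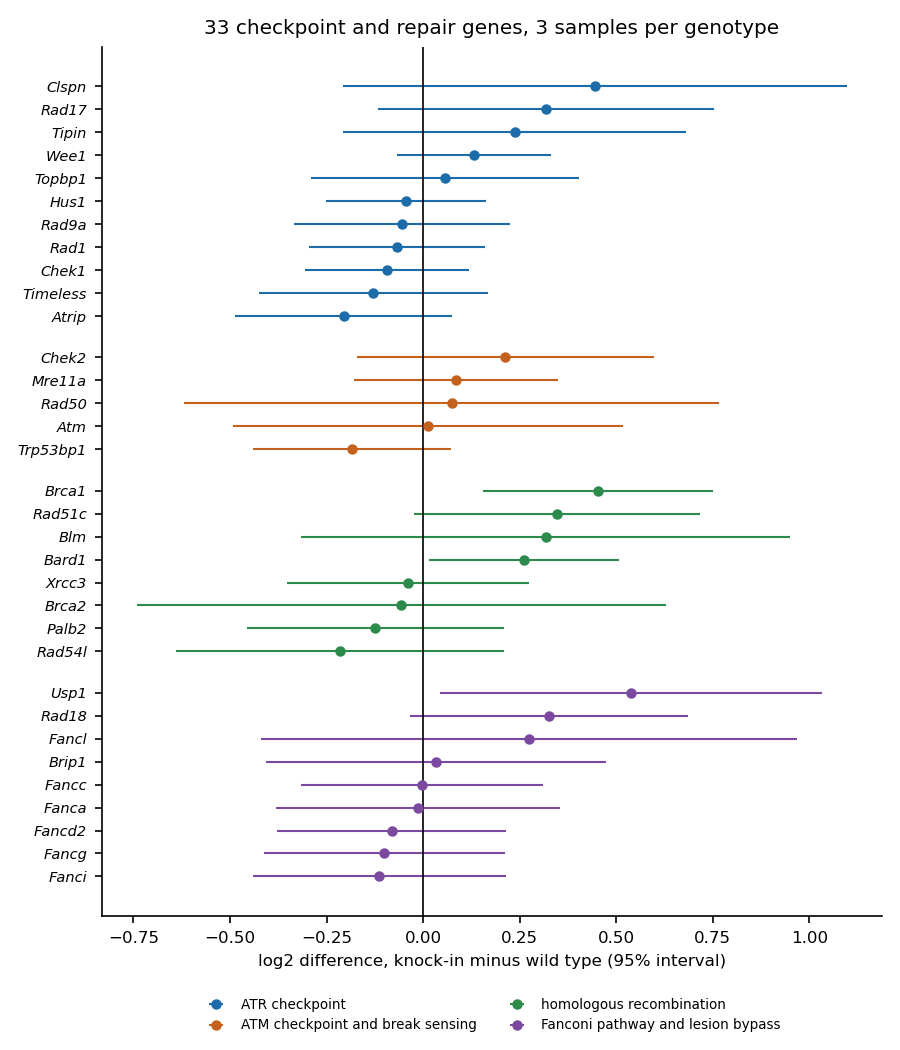
Log2 difference (knock-in minus wild type, x axis) of the 33 genes tested, with 95% intervals from limma, 3 samples per genotype, grouped by role. Intervals of Brca1, Bard1 and Usp1 lie above 0 before any adjustment, and the other 30 cross 0.

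Groups did not overlap for 5 genes. Every knock-in sample lay above every wild type sample for Wee1, Brca1, Bard1 and Usp1, and below for Trp53bp1, where 7.23% and 6.47% of all genes show these patterns. Wee1 was above background on 5 knock-in arrays and 1 wild type array. It entered the tested set mainly through the knock-in, so its place in this count was partly set by the filter. The difference between genotypes was smaller than the range of the 3 wild type samples for 30 of 33 genes, and for 8046 of all 9388.

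A single wild type sample held the lowest value of most of these genes. In the sample of arrays 9 and 10, 19 of the 33 genes had their lowest value of all 6 samples (57.6%), against 21.1% of all genes, and in that of arrays 1 and 2, 12 had their highest (36.4% against 11.2%). Neither the mitosis genes nor the replication licensing and fork genes showed both shares. Of the mitosis genes 59.1% were lowest in arrays 9 and 10, but 9.09% were highest in arrays 1 and 2. Of the replication licensing and fork genes 46.7% were highest in arrays 1 and 2, but 20% were lowest in arrays 9 and 10. Between the samples of arrays 1 to 4 the median difference of knock-in from wild type was -0.09, with 11 of 33 genes higher. It was -0.02 with 15 higher within arrays 5 to 8, and 0.23 with 27 higher within arrays 9 to 12. Over all genes these medians were -0.02, -0.02 and -0.03. Without the wild type sample of arrays 9 and 10, the median over the 33 genes was -0.09 and 15 were higher. Macrophage markers, 9 of 11 tested, had their highest mean in that sample, 8.60. Knock-in arrays 11 and 12 followed at 8.20, against 7.36 to 7.71 in the samples of arrays 1 to 8. Whether the macrophage level, lower brightness or lower Tfrc of wild type arrays 9 and 10 bears on these genes was not tested. With the blocks of 4 adjacent arrays as a term in the model, a division that the labels do not name, 0 of 33 genes were called (lowest limma adjusted p = 0.152, Rad18), against 0.937% of all genes. At an unadjusted limma p under 0.05 that fit had 6 of the 33 higher and 0 lower, where 8.88% and 8.13% of all genes were.

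**Figure D2:**
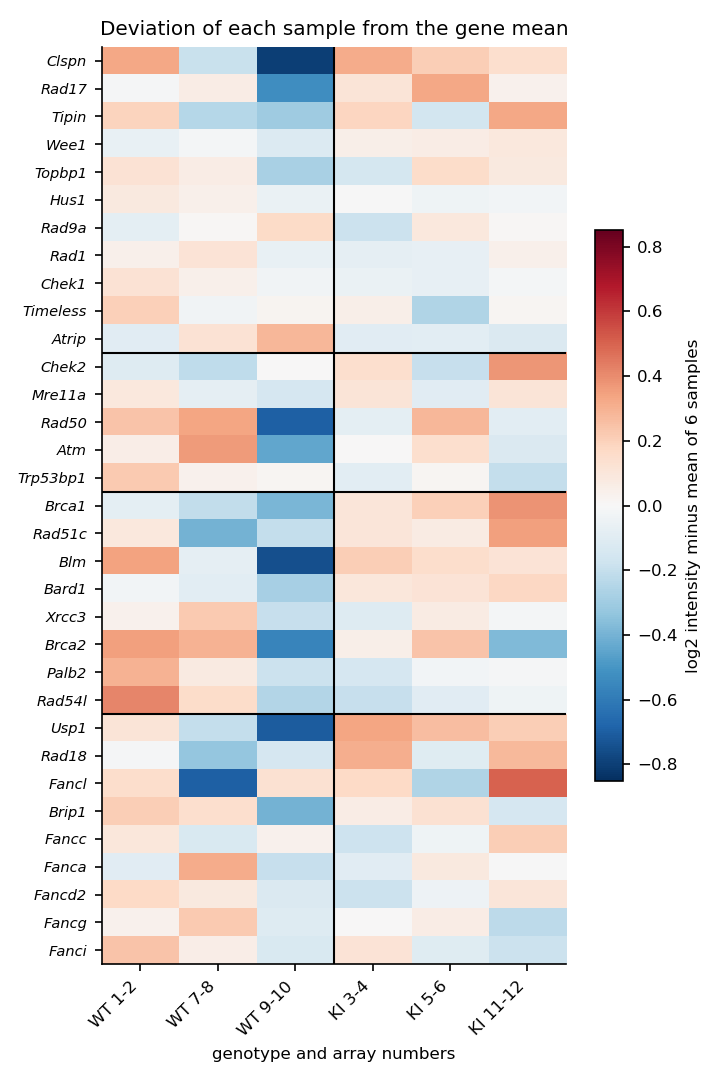
Deviation of each sample from the mean of its 6 samples (colour, log2 intensity) for the 33 genes (rows, by role) in 3 wild type (WT) and 3 knock-in (KI) samples, named by array numbers. The column of wild type arrays 9 and 10 holds the lowest value for 19 genes.

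Among ATR checkpoint genes, 11 of 12 were tested, 5 were higher and 6 lower, with a median of -0.05. None passed (lowest limma adjusted p = 0.752). The kinase Atr itself was above background on 1 of 12 arrays and its level was not measured. Its partner Atrip, which brings ATR to coated single-stranded DNA, was 6.98, 7.19 and 7.35 in wild type and 6.98, 6.98 and 6.95 in knock-in samples. The knock-in samples were nearly equal to each other and to the lowest wild type sample, and the difference was -0.21 ± 0.12 (SE, limma adjusted p = 0.752). Rad17, which loads the clamp that marks damaged DNA, was 7.47, 7.55 and 6.96 against 7.60, 7.82 and 7.52, a difference of 0.32 ± 0.18 (limma adjusted p = 0.752). The wild type sample of arrays 9 and 10 was the low one, and without it the difference was 0.13. The clamp subunits Rad9a, Rad1 and Hus1 moved little, by -0.06, -0.07 and -0.05, and Hus1 spanned 0.14 over all 6 samples, the narrowest range of the 33 genes. Topbp1, the activator of ATR that the clamp recruits, differed by 0.06.

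The fork mediators varied more. Clspn, which encodes claspin, was 9.81, 9.29 and 8.68 in wild type and 9.80, 9.70 and 9.63 in knock-in samples. The wild type samples spread over more than 1 log2 unit, while the knock-in samples lay close together (SD 0.56 and 0.09, n = 3 each). Its difference was 0.44 ± 0.27 (limma adjusted p = 0.781), or 0.15 without arrays 9 and 10. Another Clspn probe, which read 7.95, 7.60 and 7.19 in wild type and 8.71, 8.20 and 8.31 in knock-in samples, did not overlap between the groups and differed by 0.83 ± 0.22 (limma adjusted p over all probes = 0.305). The 4 Clspn probes differed by 0.14 to 0.83, all upward, but on every probe except that one the groups overlapped. Tipin and Timeless, which form the fork protection complex, differed by 0.24 ± 0.18 and -0.13 ± 0.12.

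The effector kinases were dim. Chek1, which encodes Chk1, was above background on 10 of 12 arrays and differed by -0.09 ± 0.09. Wee1, which restrains Cdk1 and Cdk2 by phosphorylation, exceeded the background limit on 5 of 6 knock-in arrays but 1 of 6 wild type arrays, and so passed the filter mainly through the knock-in. Its values of 6.04, 6.08 and 5.98 against 6.15, 6.16 and 6.18 lay in a range of 0.20, and its difference of 0.13 ± 0.08 (limma adjusted p = 0.788) turned to -0.06 under 75th percentile scaling, where the median of all genes was -0.13.

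Genes of the ATM branch and break sensing were tested for 5 of 7 members, 4 higher and 1 lower, and none passed (lowest limma adjusted p = 0.758). Nbn and Mdc1 were above background on 0 of 12 arrays. Nbn belongs to the MRN complex, and Mdc1 is a scaffold bound to phosphorylated H2ax. Atm differed by 0.01 ± 0.21 and Rad50, the MRN subunit that tethers DNA ends, by 0.07 ± 0.29. Both were lowest in wild type arrays 9 and 10, and without that sample they differed by -0.21 and -0.25. Mre11a, the MRN nuclease, was 7.92, 7.76 and 7.69 in wild type and 7.94, 7.74 and 7.94 in knock-in samples, and differed by 0.08 ± 0.11 (limma adjusted p = 0.958). Chek2, the effector kinase below ATM, was 7.34, 7.23 and 7.45 against 7.59, 7.25 and 7.82. These overlapped, and the difference of 0.21 ± 0.16 (limma adjusted p = 0.864) fell to 0.08 without knock-in arrays 11 and 12. Another Chek2 probe of similar brightness differed by only 0.05 ± 0.14, and a dim one by 0.09 ± 0.10. Trp53bp1, whose product 53BP1 shields broken ends from resection, was 7.86, 7.68 and 7.65 in wild type and 7.55, 7.65 and 7.43 in knock-in samples. The groups met without overlapping, and the difference was -0.18 ± 0.11 (limma adjusted p = 0.758). Its other probes, which read dimmer, overlapped and differed by -0.0017 and -0.04.

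Of the recombination genes 8 of 10 were tested, 4 higher and 4 lower, with a median of 0.11. Brca1 and Bard1, whose products pair through their RING domains into a ubiquitin ligase that promotes end resection, had the 2 smallest p of this group. RefSeq sequence upstream of their starts (build GRCm38.p6) is shown for these partners and for Clspn. They are the members with a matched promoter that had a probe higher in every knock-in sample than in any wild type sample. In Clspn this held only for a probe dimmer than the one used for the gene. For Brca1 the sequence is chr11:101551956-101552205 on the minus strand, for Bard1 chr1:71102973-71103222 on the minus strand and for Clspn chr4:126556730-126556979 on the plus strand. Each runs 5′ to 3′ over the 250 bases before the start, and capitals mark the CCAAT box or an E2F motif.
Brca1: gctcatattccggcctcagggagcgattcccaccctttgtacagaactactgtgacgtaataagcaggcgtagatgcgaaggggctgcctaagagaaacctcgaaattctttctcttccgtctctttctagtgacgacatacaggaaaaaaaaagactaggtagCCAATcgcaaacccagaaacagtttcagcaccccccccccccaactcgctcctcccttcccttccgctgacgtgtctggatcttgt
Bard1: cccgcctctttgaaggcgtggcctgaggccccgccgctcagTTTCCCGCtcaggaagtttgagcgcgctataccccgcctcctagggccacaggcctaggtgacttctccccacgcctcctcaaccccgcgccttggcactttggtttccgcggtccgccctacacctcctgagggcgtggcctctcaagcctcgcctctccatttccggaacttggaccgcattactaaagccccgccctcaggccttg
Clspn: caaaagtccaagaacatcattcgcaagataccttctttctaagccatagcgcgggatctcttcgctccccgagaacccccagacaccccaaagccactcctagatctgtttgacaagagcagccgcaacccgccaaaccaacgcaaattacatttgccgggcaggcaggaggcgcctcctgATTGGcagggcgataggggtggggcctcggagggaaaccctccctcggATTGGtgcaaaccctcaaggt

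The motifs searched on both strands were the CCAAT box (CCAAT), the E2F motif in the forms TTTCCCGC, TTTCGCGC, TTTGCCGC and TTTGGCGC, and the cell cycle element CHR (TTTGAA). No form contains the letters of another motif. Promoters were matched for 29 of the 38 genes, among them Atr and Mdc1, which were not tested. The shares for comparison cover tested genes only, so the 2 sets are not fully alike. An E2F motif stood in 6 of the 29 (20.7%), those of Bard1, Brca2, Chek2, Fancg, Mdc1 and Topbp1, against 3.96% of the tested genes with a promoter. A CCAAT box stood in 13 (44.8%, against 41.3%) and the CHR element in 2 (6.9%, against 13.4%), Bard1 and Hus1. The Brca1 window above held 1 CCAAT box and none of the E2F forms, that of Bard1 an E2F motif 201 bases before the start, and that of Clspn 2 CCAAT boxes. A motif is a match of letters only. Among the tested genes with an E2F motif, Bard1 differed by 0.26, Chek2 by 0.21 and Topbp1 by 0.06. Brca2 differed by -0.06 and Fancg by -0.10, so these genes did not share a direction.

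Brca1 was 6.65, 6.52 and 6.34 in wild type and 6.83, 6.93 and 7.11 in knock-in samples. All 3 knock-in samples lay above all wild type samples. The difference was 0.45 ± 0.12, 1.37-fold (95% interval 1.11 to 1.68), and did not pass (limma adjusted p = 0.297). A second Brca1 probe read 6.19, 6.14 and 6.18 against 6.75, 6.44 and 6.61, without overlap, and differed by 0.43 ± 0.11 (limma adjusted p over all probes = 0.266). That probe lay near background in wild type, above the limit on 5 of 6 wild type arrays with raw intensities up to 13.9. Within arrays 1 to 4, 5 to 8 and 9 to 12 the first probe differed by 0.18, 0.41 and 0.77, and with any 1 sample left out by 0.37 to 0.53. The size depended on the processing: the difference was 0.81 without background correction (limma adjusted p = 0.258) and 0.29 under 75th percentile scaling (limma adjusted p = 0.664), where it no longer had an unadjusted p under 0.05.

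Bard1 was 6.58, 6.51 and 6.31 in wild type and 6.69, 6.72 and 6.77 in knock-in samples. The groups did not overlap here either, and the difference was 0.26 ± 0.10, 1.20-fold (1.01 to 1.42, limma adjusted p = 0.548). It was 0.50 without background correction and 0.091 under 75th percentile scaling (limma adjusted p = 0.764). Rad51c, which acts in strand exchange and the resolution of joint molecules, was 7.48, 6.99 and 7.19 against 7.50, 7.46 and 7.74. Its groups overlapped, and the difference of 0.35 ± 0.15 did not pass (limma adjusted p = 0.635), with a dimmer probe at 0.23 ± 0.19. Blm, the helicase that dissolves joint molecules, differed by 0.32 ± 0.26 and by 0.02 without wild type arrays 9 and 10. Its range over the 6 samples was 1.09, from 8.46 in wild type arrays 9 and 10 to 9.55 in wild type arrays 1 and 2, wider than the difference between genotypes.

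The other recombination genes that were tested lay below 0. Brca2 and Palb2, whose products bind each other and act on resected ends, differed by -0.06 ± 0.28 and -0.12 ± 0.14. Rad54l, a motor protein that moves along DNA during strand exchange, differed by -0.22 ± 0.18, and by -0.39 without wild type arrays 9 and 10, while Xrcc3, whose product forms a complex with that of Rad51c, differed by -0.04 ± 0.13. Brca2 was low in both samples of arrays 9 to 12, at 7.01 and 7.19 against 7.62 to 7.92 in the other 4. The resection nuclease gene Exo1 exceeded the background limit on 4 of 6 knock-in arrays but 1 of 6 wild type arrays with its best probe, and was not tested.

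**Figure D3:**
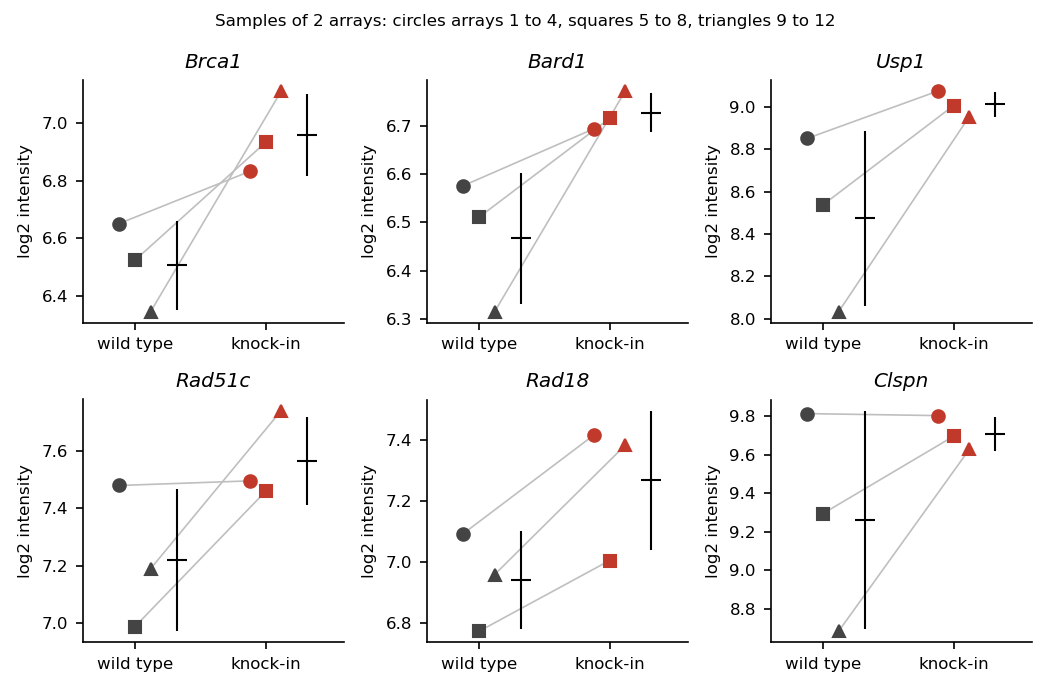
Log2 intensity (y axis, a separate scale for each gene) of the 3 wild type (grey) and 3 knock-in (red) samples for 6 genes, with the mean and SD beside each group. Lines join the samples of the same 4 adjacent arrays, circles for arrays 1 to 4, squares for 5 to 8 and triangles for 9 to 12. The groups do not overlap for Brca1, Bard1 and Usp1. All 6 genes shown have a higher mean in the knock-in, while 16 of the 33 genes tested were lower. Rad17 (higher), Atrip and Trp53bp1 (both lower) had a smaller unadjusted limma p than Clspn and are not shown.

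All 9 members of the Fanconi pathway and lesion bypass were tested, 4 higher and 5 lower, with a median of -0.0030. Usp1, the protease that removes ubiquitin from Fancd2, Fanci and PCNA, was 8.85, 8.54 and 8.03 in wild type and 9.07, 9.01 and 8.95 in knock-in samples. The knock-in samples lay above the wild type samples and closer together (SD 0.06 against 0.41, n = 3 each). Its difference was 0.54 ± 0.21 (limma adjusted p = 0.525), or 0.32 without wild type arrays 9 and 10. The other Usp1 probes differed by 0.38 and 0.39, and their groups overlapped. Rad18, the ubiquitin ligase that marks PCNA for lesion bypass, was 7.09, 6.77 and 6.96 against 7.42, 7.01 and 7.38. The groups overlapped because arrays 5 to 8 read lower in both genotypes; within the blocks of 4 arrays it differed by 0.32, 0.23 and 0.42, and overall by 0.33 ± 0.15 (limma adjusted p = 0.643).

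Fancl, the ubiquitin ligase of the Fanconi core complex, was 9.44, 8.59 and 9.42 against 9.45, 9.03 and 9.79. It was lowest in arrays 5 to 8 of both genotypes and differed by 0.27 ± 0.29 (limma adjusted p = 0.94), and by -0.0033 without wild type arrays 7 and 8. Its 4 tested probes all differed upward, by 0.16 to 0.27. The substrates of that ligase, Fancd2 and Fanci, differed by -0.08 ± 0.12 and -0.11 ± 0.14. The core complex genes Fanca, Fancc and Fancg differed by -0.01, -0.0030 and -0.10, and the helicase gene Brip1, whose product binds Brca1, by 0.03 ± 0.18. Fancg was dim, above background on 10 of 12 arrays.

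More than 1 probe was tested for 20 genes, and for 16 of them all probes had the same sign. The exceptions were Timeless, Mre11a, Rad54l and Fancc, each with differences near 0 on at least 1 probe.

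**Figure D4:**
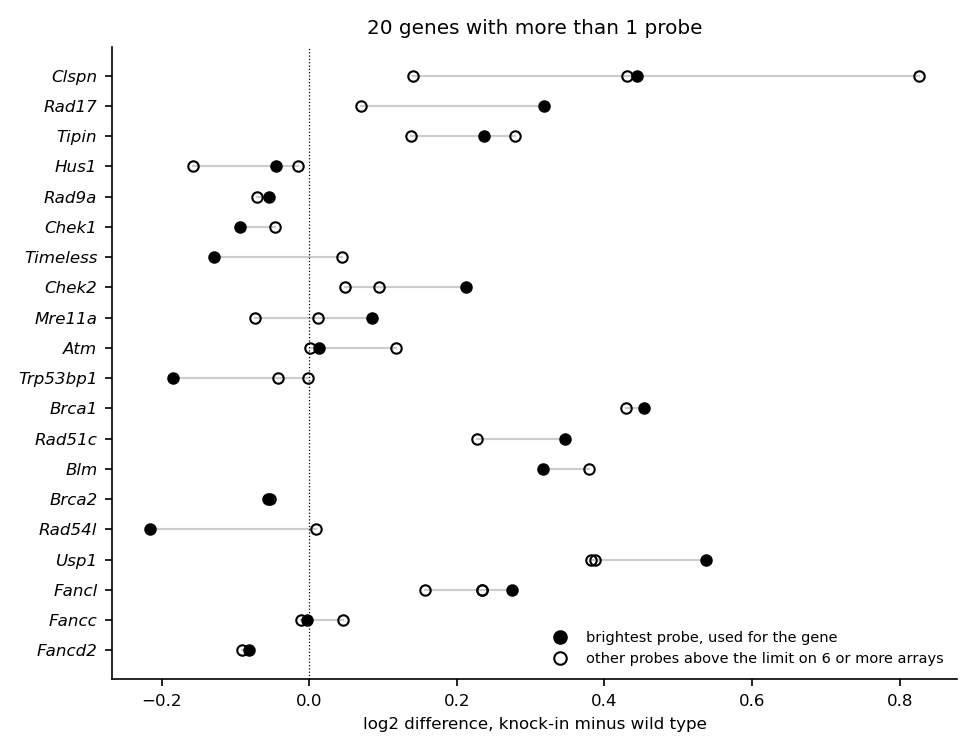
Log2 difference (knock-in minus wild type, x axis) of each tested probe for the 20 genes with more than 1; the filled point is the brightest probe, used for the gene. Both Brca1 probes lie at 0.43 and 0.45, and the 4 Clspn probes range from 0.14 to 0.83.

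A second list of checkpoint and repair genes outside the 38 had 55 symbols, of which 37 were tested. Of these 19 were higher and 18 lower, with a median of 0.0011, and 0 passed in either direction. Where 5.56% of all genes were higher and 3.09% lower at an unadjusted limma p under 0.05, 5 of the 37 were higher and 1 lower. The highest among them were Smc6, a subunit of the Smc5/6 complex, at 0.89 ± 0.31, and Rnf8, the ubiquitin ligase recruited by Mdc1, at 0.70 ± 0.12 (limma adjusted p = 0.139). Etaa1, an activator of ATR, stood at 0.69 ± 0.21, the histone gene H2ax at 0.64 ± 0.15 and Brcc3, a deubiquitinase of the Brca1 A complex, at 0.48 ± 0.14. The lower one was Rfc2, a subunit of clamp loaders, at -0.36 ± 0.10. Of 10 end joining genes 7 were tested, 1 higher and 6 lower with a median of -0.03. Xrcc6, which encodes Ku70, was at -0.44 ± 0.12 (limma adjusted p = 0.297). It was the single gene of the list at an unadjusted p under 0.05, where 3.09% of all genes were lower.

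Other lists track the cell cycle. Genes of replication licensing and forks, 30 of 32 tested, had 18 higher, a median of 0.01 and 0 called by limma. At an unadjusted p under 0.05, 1 of them lay below 0 and 0 above, against 3.09% and 5.56% of all genes. Mitosis genes, 22 of 28 tested, had 21 higher, a median of 0.40 and 0 called by limma. At an unadjusted limma p under 0.05, 9 of the 22 were higher, where 5.56% of all genes were. With the 4-array blocks in the model 2 of the 22 were called, where 0.937% of all genes were. The mean level of the mitosis genes was 9.29, 8.89 and 8.71 in wild type and 9.38, 9.34 and 9.49 in knock-in samples, without overlap. It was lowest in wild type arrays 9 and 10, as were Brca1, Bard1 and Usp1. Markers of B lineage cells, which also divide and repair DNA, went the other way, with 13 of 19 tested and 13 of 13 lower. Their mean was 8.53, 8.74 and 8.06 against 7.52, 7.60 and 7.38. Pax5, Rag2 and Vpreb2 were above background on 0 arrays, but Cd79b and Vpreb3 were above it on all 12. B lineage transcripts were therefore present in the sorted samples. Markers of mast cells, basophils and eosinophils, 10 of 10 tested and all lower, had means of 9.31 to 9.87 against 8.98 to 9.34. Megakaryocyte markers, 7 of 9 tested, spanned 6.79 to 7.32 over the 6 samples, and T and NK cell markers, 5 of 10 tested, 7.19 to 7.67. The part of these lists in the values of the checkpoint and repair genes was not tested.

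**Figure D5:**
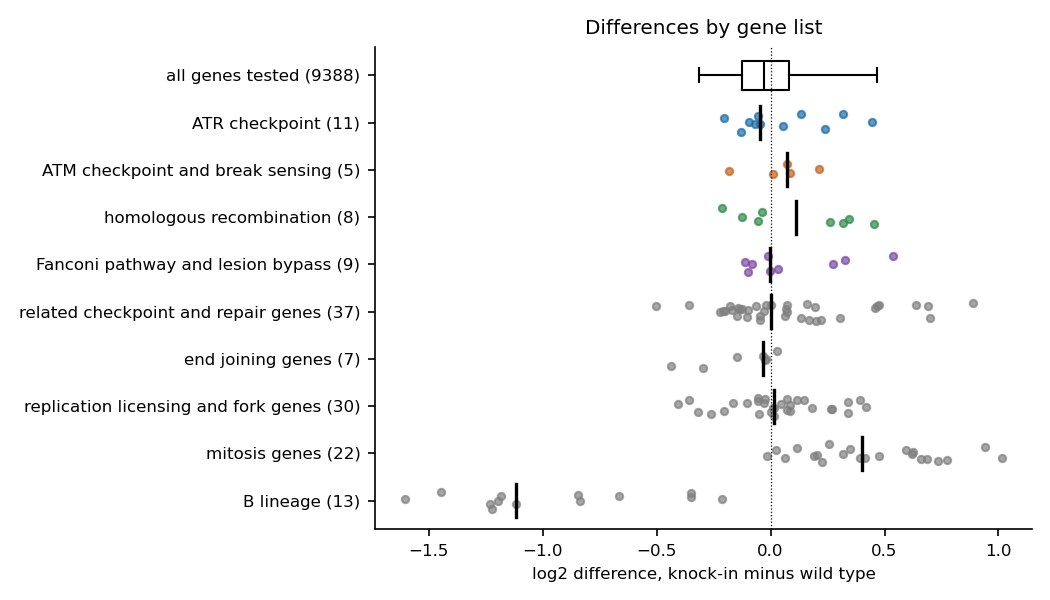
Log2 difference (knock-in minus wild type, x axis) of each gene by list, with the number tested in brackets and a bar at the median; the box for all genes spans the quartiles and its whiskers the 5th to 95th percentile. The checkpoint and repair groups have medians of -0.05 to 0.11, the mitosis genes 0.40 and the B lineage markers -1.12.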

How the data were processed

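Biotinylated cRNA from the total RNA of sorted erythroblasts was measured on Illumina bead arrays, per the labels' protocols. The authors deposited intensity values for 45281 probes on 12 arrays, made with GenomeStudio per the submitters' processing notes, which name no version. Of the values on each array, 33.05% to 37.02% lie below 0, as after background subtraction. A second deposited table of intensity values, scaled by an unstated method, was used as an alternative.

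Intensities were corrected with limma 3.58.1 (R 4.3.3) by normexp with an offset of 50, quantile-normalized and taken to log2. The background limit of an array was the 90th percentile of its mirrored negative values. Probes above it on at least 6 of the 12 arrays were kept, whatever their genotype, and the brightest stood for its gene. Samples were averages of adjacent arrays, grouped by the genotype in the titles. All 9388 genes were fitted with lmFit and eBayes, Benjamini-Hochberg adjusted over all, with a threshold of 0.05. The fit was tested on simulated data, with 3 samples against 3. It recovered 69 of 100 genes changed by 1 log2 unit, with 8 false calls, and 91 of 100 changed by 2. The number of samples, 3 per genotype, limits the precision.

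The members and all lists were chosen with earlier results of these data known. Every member is accounted for; values in every sample are given for the 3 with the smallest p in each role group and the 3 with the largest difference (12 genes), and for Wee1 and dimmer probes, added after their values were seen. From other lists only genes at an unadjusted p under 0.05 are named, at most 6 per list. Exceptions are the sort gene Tfrc and 3 B lineage markers at background (Pax5, Rag2, Vpreb2). Those 3 do not show that the sort was free of B lineage cells, since other markers of that list were detected. Of the probes, 34885 had 1 symbol and 18 several. Alternatives were other background corrections, normalizations, filters, probe rules, variance models, replicate definitions, blocks of 4 arrays, and each sample left out. Figures were drawn with matplotlib 3.10.9.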

Additional observations from a re-analysis of the deposited data

How the results depend on the processing

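The count of checkpoint and repair genes called by limma, 0 as reported, was 0 under each alternative and with each sample left out, except that the 12 arrays taken as 12 samples gave 3 (Brca1, Bard1 and Usp1, limma adjusted p = 0.0064, 0.028 and 0.032); that setting counts duplicate arrays as independent. Of all genes, 8 were called as reported. The count was 16 without background correction, with the authors' processed values and with eBayes trend and robust, 44 with array weights, 283 with the array pair as a random block, 88 when the 4-array blocks entered the model and 860 with 12 samples. It lay between 0 and 6 with 1 sample left out, and was 0 without wild type arrays 1 and 2, knock-in arrays 3 and 4, or knock-in arrays 11 and 12. The cause of these changes was not tested. Leaving out a sample changed the number of samples and their identity together.

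At an unadjusted limma p under 0.05, 3 members were higher and 0 lower as reported, where 8.65% of all genes reached it in either direction. With array weights 3 were higher (Brca1, Rad18, Usp1) and 2 lower (Rad54l, Trp53bp1), against 13.5% of all genes. Scaling to the 75th percentile left 1 higher, against 8%. Leaving out a sample gave 1 to 6 higher, with 5.95% to 10.7% of all genes in either direction. Without wild type arrays 1 and 2, 6 were higher and 1 lower, against 10.7%.

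Of 426 differences of single members under other settings, 413 kept their direction and side of the threshold, 3 were those called with 12 samples, and 10 changed sign, each a member that did not pass either way. Under 75th percentile scaling, where the median of all genes was -0.13, these were Topbp1 (-0.080), Wee1 (-0.060), Atm (-0.14) and Brip1 (-0.12). With array weights they were Topbp1 (-0.12), Atm (-0.049), Rad50 (-0.13) and Brip1 (-0.024), with cyclic loess Atm (-0.0088) and with the mean of probes Fancc (0.011). Other probes turned the sign for Timeless (0.045), Mre11a (-0.073), Rad54l (0.0088) and Fancc (0.046). With 1 sample left out, differences ran from -0.066 to 0.15 for Topbp1, -0.11 to 0.024 for Rad9a, -0.21 to 0.20 for Atm, -0.25 to 0.26 for Rad50, -0.35 to 0.12 for Brca2, -0.15 to 0.061 for Xrcc3, -0.12 to 0.14 for Fanca, -0.11 to 0.084 for Fancc, -0.0033 to 0.47 for Fancl and -0.16 to 0.15 for Brip1.

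The labels share no replicate numbers between genotypes. The fit with the 4-array blocks, each holding 1 sample of either genotype, pairs them by array number only. Members near background (Chek1, Fancg, Wee1, Exo1) are limited by signal, and Atr, Nbn and Mdc1 were not measured.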
